A study of Mus musculus with 72 samples.

Results

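The 10 genes described here, Fos, Fosb, Fosl1, Jun, Egr1, Egr3, Ier2, Ier3, Srf and Atf3, are immediate early genes of the serum response. They were taken by name from the 45321 genes of the count tables. Each was represented by the transcript that held the most counts over all 72 count files, and all 10 passed the filter on low counts. The measurement was poly(A) RNA sequencing of mouse embryonic stem cells with and without the nuclear pore subunit Nup133.

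Immediate early genes are transcribed within minutes of a growth factor signal, without new protein synthesis. Serum factors act through receptors and the kinase ERK on ternary complex factors bound beside serum response factor (SRF), and through actin on the SRF partner MRTF. The Fos, Jun and Egr proteins are themselves transcription factors, so the response passes the signal on to later genes, and in embryonic stem cells ERK signalling is known to favour exit from self-renewal.

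Controls were HM1 cells (Nup133+/+, XY), labelled as biological replicates 1 and 2, and cells of line 1A4 (Nup133+/+, Sox1gfp/+, XY), derived from a blastocyst. Cells without functional Nup133 were lines 14 and 19 (Nup133-/-, XY), which are CRISPR/Cas9 derivatives of HM1, and the blastocyst-derived line 319 (Nup133merm/merm, Sox1gfp/+, XX). Sox1gfp is a reporter allele that both blastocyst-derived lines carry. Line 319 has an extra copy of chromosomes 8 and 12, which hold Ier2 and Fos. Each knockout line is a single line, so the genotype groups have 3 samples each at each time.

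Cells at day 0 came from medium with serum and LIF on a layer of inactivated feeder fibroblasts (DR4), and were trypsinised and plated for 20 minutes to remove the feeders. Cells at day 2 had spent the time since in N2B27, a medium without serum or LIF, on gelatin. Cells at day 3 had in addition received fresh medium with 1 µM all-trans retinoic acid for the last 24 hours. Between day 0 and day 2 the loss of serum, LIF and feeders, the trypsin step just before the day 0 collection and the time in culture cannot be told apart. Between day 2 and day 3 the fresh medium, the retinoic acid and the further time in culture cannot be told apart either.

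The 18 samples held between 16466724 and 54386795 gene counts. The shallowest, line 19 at day 2, also stood apart by its ratio of counts over all transcripts to counts of the chosen ones (2.62, others 2.81 to 2.92). Member results were therefore also fitted without it. Of 55 such results 50 kept direction and call (defined below), 3 lost the call, 1 gained it and 1 changed sign. Those that lost the call are named below, and no list count is given without this library alone. HM1 replicates share a line and nothing in the labels ties other samples to separate cultures, so p-values measure the spread between these samples, part of which may be technical. Nup133 checked the labels: its level in CPM (counts scaled to library size) was 179.5 to 323 in the 9 control samples and 14.3 to 37.1 in the 9 knockout samples.

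The sequences before the start sites are shown for 4 members whose values anchor the results: the 2 members with the widest changes, Fos and Fosb, the AP-1 partner Jun, and Srf, the factor that reads the signal. They are the 250 bases upstream of the RefSeq start in GRCm38.p6, 5′ to 3′ on the gene's strand. Capitals mark matches to the motifs named after the sequences. Fos lies on chromosome 12 (chr12:85473640-85473889, plus strand), Fosb on chromosome 7 (chr7:19310046-19310295, minus strand), Jun on chromosome 4 (chr4:95052223-95052472, minus strand) and Srf on chromosome 17 (chr17:46556163-46556412, minus strand).
Fos: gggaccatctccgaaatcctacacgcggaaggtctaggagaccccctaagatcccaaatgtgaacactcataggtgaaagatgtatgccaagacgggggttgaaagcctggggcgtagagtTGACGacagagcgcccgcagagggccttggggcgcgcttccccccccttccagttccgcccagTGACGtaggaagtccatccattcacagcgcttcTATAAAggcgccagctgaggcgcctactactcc
Fosb: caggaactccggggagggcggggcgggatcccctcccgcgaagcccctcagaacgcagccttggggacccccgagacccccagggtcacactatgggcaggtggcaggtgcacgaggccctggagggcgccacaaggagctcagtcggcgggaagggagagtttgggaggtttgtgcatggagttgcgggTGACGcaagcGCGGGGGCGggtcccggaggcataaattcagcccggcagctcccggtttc
Jun: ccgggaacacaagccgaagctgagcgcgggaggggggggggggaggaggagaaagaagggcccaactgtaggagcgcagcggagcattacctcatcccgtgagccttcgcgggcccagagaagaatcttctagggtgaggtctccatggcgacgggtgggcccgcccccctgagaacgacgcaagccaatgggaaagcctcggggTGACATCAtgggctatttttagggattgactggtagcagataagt
Srf: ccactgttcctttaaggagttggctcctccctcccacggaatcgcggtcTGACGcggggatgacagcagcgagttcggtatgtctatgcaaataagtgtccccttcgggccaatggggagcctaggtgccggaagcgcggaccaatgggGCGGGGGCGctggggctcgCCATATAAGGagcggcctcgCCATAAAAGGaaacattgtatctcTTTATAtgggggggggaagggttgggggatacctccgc

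RefSeq windows were found for 6 of the 10 members (Fos, Fosb, Jun, Ier3, Srf and Atf3), and both strands were searched. The Srf window held 2 CArG boxes, the motif that SRF itself binds, which begin at -82 and -62 from the start, whereas 1.47% of the 32851 mouse promoter windows of the same length held at least 1. TGACG, the core of the site for CREB and ATF proteins, was found in Fos (at -129 and -66), Fosb, Srf and Atf3, and in 17.8% of all windows. TGACATCA, a site for dimers of Jun with ATF proteins, stood in the Jun window at -45 (2.93% of all windows). The Egr site GCGGGGGCG was in the Fosb and Srf windows (2.57%). The TATA box TATAAA stood in Fos at -33 and on the other strand in Srf at -38 (12.4%). TGACTCA, the AP-1 site, was in none of the 6 windows and in 4.46% of all windows. These matches describe letters in a short window, and elements farther upstream were not searched.

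At day 0 the members covered a wide range of levels per length of transcript. In the controls the highest mean level was that of Ier2, at 121 CPM per kilobase (kb), followed by Fos at 91.9, Egr1 at 58.4, Srf at 37.5 and Fosb at 32.3. Egr3 was lowest at 2.88 CPM per kb. The ranges of the 3 control samples overlapped for all 9 pairs of neighbours in that order. At day 2 the order was different, with Ier2 at 59.7 and Srf at 51.8 CPM per kb first, Fos seventh at 2.00 and Fosb last at 0.22, and only 3 of 9 neighbouring pairs overlapped (Egr1 with Jun, Jun with Atf3, and Egr3 with Fosb).

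The comparison of day 2 with day 0 asks what became of the serum response when the cells left serum. In controls 7 of the 10 members fell and none rose: Fosb, Fos, Egr3, Egr1, Fosl1, Ier3 and Ier2. In knockout cells 6 fell and none rose, the same genes without Fosl1. Of all 18273 genes tested, 35.2% were called in controls, 15.5% as lower, and 35.9% in knockout cells, 15.1% as lower and 20.8% as higher. The samples of the days did not overlap for 7 members lower and 1 higher in controls (30.1% and 31.7% of all genes), and for 7 lower in knockout cells (16.1%). The median change of the members was -2.18 on the log2 scale in controls and -1.63 in knockout cells, beside 0.01 and 0.06 for all genes. Calls are at a Benjamini-Hochberg adjusted p under 0.05 in edgeR's quasi-likelihood test. Changes are log2 fold changes ± an approximate standard error (SE). This SE is the absolute log2 fold change divided by the square root of the test's F, not a direct estimate. It can mislead at low counts: for Egr3 it was 0.59 for the genotype difference, below 0.62 and 0.76 for the changes compared. In bulk RNA, fewer cells that express a gene and less RNA per cell cannot be told apart.

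**Figure D1:**
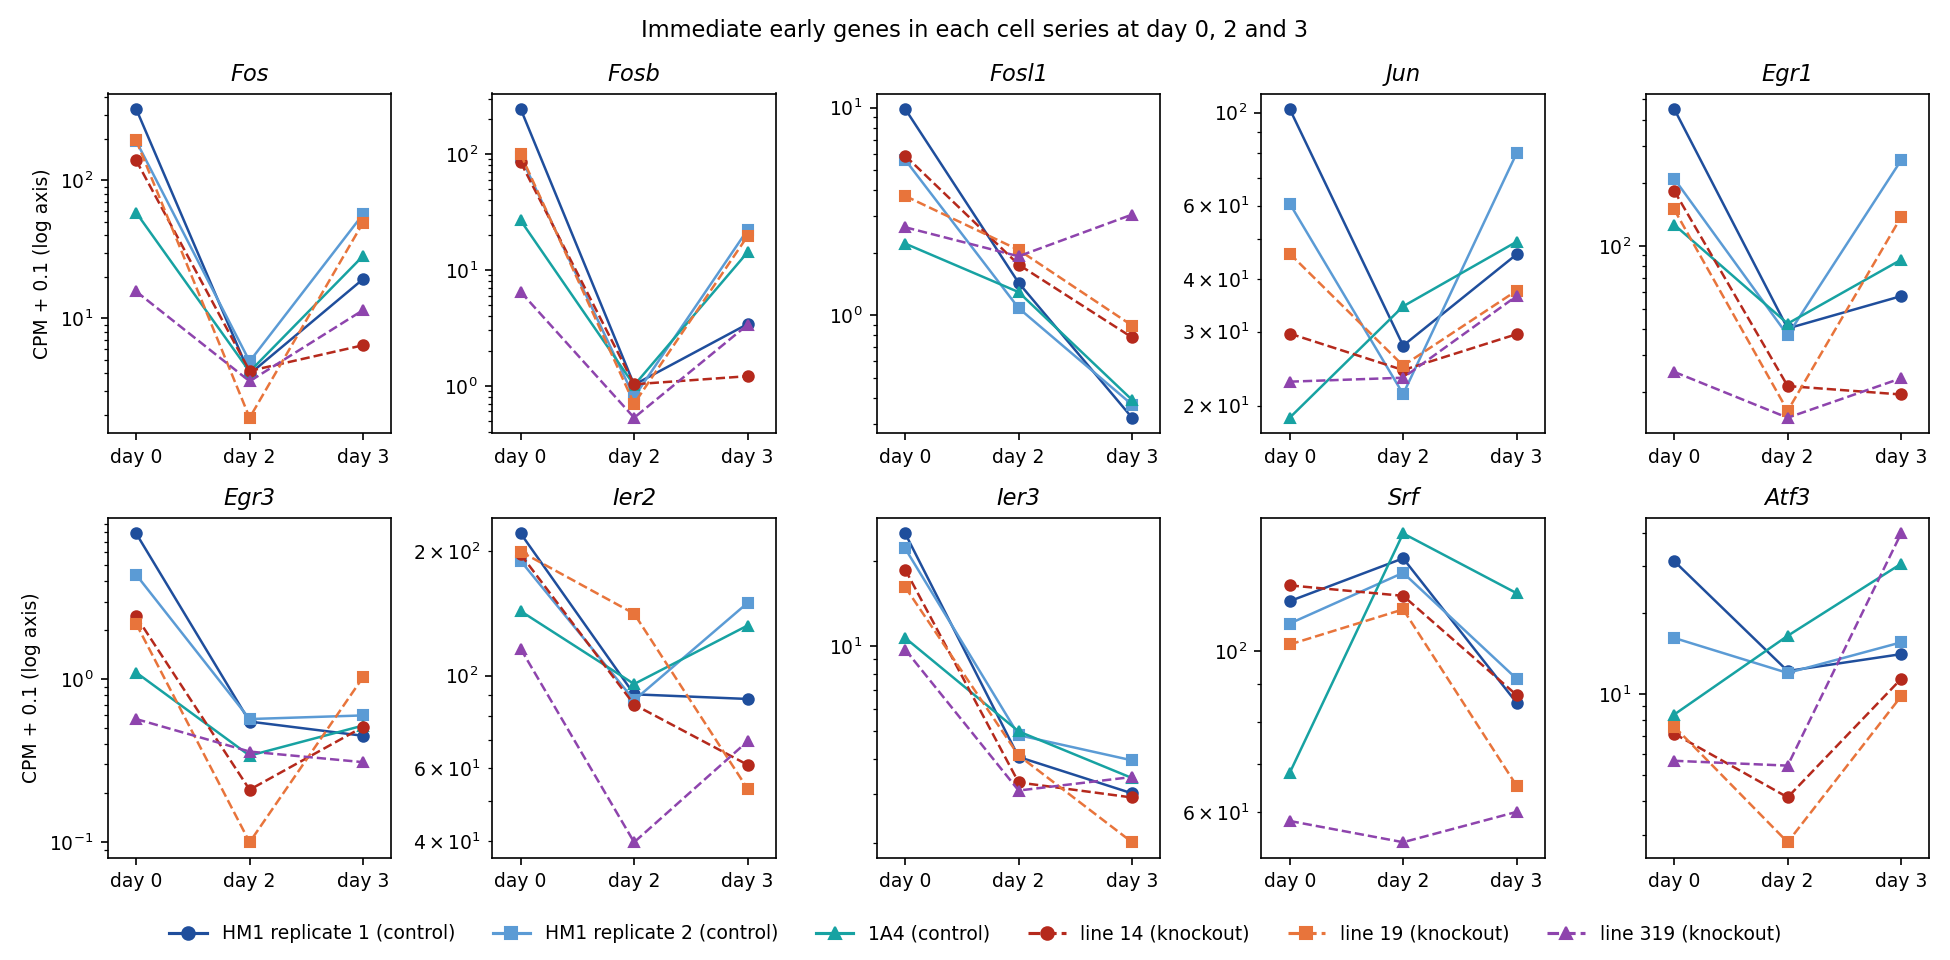
Level of each gene in CPM plus 0.1 on a log axis at day 0, 2 and 3, with 1 line per cell series (solid, controls; dashed, knockout lines). Fos, Fosb and Egr1 drop from day 0 to day 2 in every series, and the series lie far apart at day 0 and close together at day 2 for Fos and Fosb.

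Fos, whose protein pairs with Jun proteins to form AP-1, had 329.8 CPM in HM1 replicate 1 at day 0, 193 in HM1 replicate 2 and 58.4 in 1A4. At day 2 the same series held 3.86, 4.79 and 4.02 CPM. Knockout lines 14, 19 and 319 had 139.8, 195 and 15.6 CPM at day 0 and 4.07, 1.81 and 3.41 CPM at day 2. Every day 0 sample lay above every day 2 sample, although line 319, with its extra chromosome 12, was the lowest at day 0. The change was -5.25 ± 0.85 (SE, adjusted p = 2.3e-04, edgeR) in controls, a 38.0-fold drop, and -4.83 ± 0.86 (adjusted p = 4.8e-04) in knockout cells.

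Fosb, a close relative of Fos, had the widest change of the 10. Its levels at day 0 were 245, 94.6 and 26.6 CPM in HM1 replicate 1, HM1 replicate 2 and 1A4, and 84.9, 99.7 and 6.36 CPM in lines 14, 19 and 319. At day 2 all 6 samples lay between 0.43 CPM (line 319) and 0.93 CPM (line 14). The order of the samples at day 0 was that of Fos, with line 319 again lowest. In controls the change was -6.79 ± 1.16 (edgeR, adjusted p = 3.8e-04), a 111-fold drop, and in knockout cells -6.24 ± 1.19 (adjusted p = 8.8e-04), a 75.6-fold drop.

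Fosl1, which encodes the AP-1 subunit Fra-1, was a low transcript, with 9.75, 5.50 and 2.11 CPM in the controls at day 0 and 1.33, 0.98 and 1.19 CPM at day 2. The knockout lines had 5.76, 3.65 and 2.55 CPM at day 0 and 1.65, 1.96 and 1.82 CPM at day 2. In both genotypes the days did not overlap, but the gap was narrow for 1A4 and line 319. The fall in controls was called (-2.32 ± 0.56, edgeR, adjusted p = 0.0048), though not without HM1 replicate 1 (-1.85, adjusted p = 0.087) or HM1 replicate 2 (-2.24, adjusted p = 0.063). In knockout cells the value was -1.14 ± 0.55 (adjusted p = 0.12). Exons of Ccdc85b overlap Fosl1 on the opposite strand, and since the use of strand in counting is not given in the sources used here, reads of the 2 genes may be mixed.

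Jun, the main partner of Fos in AP-1, moved differently between lines. HM1 replicates 1 and 2 had 102 and 60.6 CPM at day 0 and 27.7 and 21.2 CPM at day 2, whereas 1A4 had 18.6 CPM at day 0 and 34.4 CPM at day 2. Lines 14, 19 and 319 had 29.6, 46.0 and 22.7 CPM at day 0, and at day 2 all 3 lay between 23.2 and 24.8 CPM. The days overlapped in both genotypes, and neither change was called (controls, -1.0 ± 0.41, edgeR, adjusted p = 0.07; knockout, -0.41 ± 0.40, adjusted p = 0.45). Without 1A4 the control change was -1.73 with an adjusted p of 0.0041. Exons of the antisense RNA Junos overlap Jun, with the same limit on strand.

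Egr1, a zinc finger factor induced through SRF, had 450.3, 209 and 126 CPM in the controls at day 0 and 40.2, 37.3 and 42.4 CPM at day 2. In lines 14, 19 and 319 it had 183, 149 and 24.9 CPM at day 0 and 21.3, 16.2 and 15.0 CPM at day 2. The days did not overlap in either genotype. Both changes were -2.48 (SE 0.69 and 0.70, edgeR, adjusted p = 0.011 in controls and 0.012 in knockout cells). The control call was lost without HM1 replicate 1 (-1.89, adjusted p = 0.12) or HM1 replicate 2 (adjusted p = 0.067), and the knockout call without line 14 (-2.07, adjusted p = 0.084) or without the line 19 library of day 2 (-2.25, adjusted p = 0.058).

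Egr3, a low member of the same family, had 7.75, 4.28 and 1.00 CPM in the controls at day 0 and 0.45, 0.47 and 0.24 CPM at day 2. Knockout lines had 2.33, 2.09 and 0.47 CPM at day 0 and 0.11, 0 and 0.26 CPM at day 2, which rest on 6, 0 and 6 counts in lines 14, 19 and 319. The days did not overlap, and line 319 had the smallest gap. The falls were -3.31 ± 0.62 (edgeR, adjusted p = 7.6e-04) in controls and -3.34 ± 0.76 (adjusted p = 0.0031) in knockout cells, the latter not called without line 14 (-2.54, adjusted p = 0.086).

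Ier2 and Ier3, small proteins named for their immediate early response, fell in both genotypes. Ier3, which is linked to cell survival, had 25, 22.1 and 10.6 CPM in the controls at day 0 and 3.95, 4.74 and 4.89 CPM at day 2, and 18.6, 16.1 and 9.63 CPM and then 3.19, 4.0 and 2.98 CPM in lines 14, 19 and 319. The groups were well apart, and Ier3 had the smallest adjusted p of the 10 members in both genotypes (controls, -2.04 ± 0.31, 1.3e-04; knockout, -2.11 ± 0.31, 1.1e-04, edgeR).

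Ier2 had 220.1, 189 and 143 CPM in the controls at day 0 and 90.1, 87.2 and 95.4 CPM at day 2. In lines 14, 19 and 319 it had 196, 199 and 116 CPM and then 85.1, 141 and 39.6 CPM, so that line 19 at day 2 lay above line 319 at day 0. Ier2 thus kept about the same control level in all 3 series at day 2, and its change was the smallest of those called (-0.99 ± 0.32, edgeR, adjusted p = 0.024 in controls; -0.97 ± 0.32, adjusted p = 0.027 in knockout cells). The control call was lost without HM1 replicate 1 (adjusted p = 0.17), HM1 replicate 2 (0.16) or line 14 (0.051), and the knockout call without line 14 (0.17) or HM1 replicate 2 (0.056).

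Srf and Atf3 did not pass the test. Srf had 117, 109 and 67.9 CPM in the controls at day 0 and 134, 128 and 145 CPM at day 2, where every day 2 sample lay above every day 0 sample (0.52 ± 0.27, edgeR, adjusted p = 0.15). Lines 14, 19 and 319 had 123, 102 and 58.3 CPM at day 0 and 119, 114 and 54.5 CPM at day 2 (0.01 ± 0.26, adjusted p = 0.97). Line 319 stood below the other lines at both times.

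Atf3, a factor of the ATF and CREB family that responds to stress as well as to serum, had 31.2, 16.1 and 8.30 CPM in the controls at day 0 and 12.1, 11.9 and 16.4 CPM at day 2. Its days overlapped in controls, where 1A4 went the other way than HM1 (-0.58 ± 0.48, edgeR, adjusted p = 0.38). Lines 14, 19 and 319 had 7.03, 7.48 and 5.55 CPM and then 4.03, 2.71 and 5.32 CPM, which did not overlap (-0.78 ± 0.50, adjusted p = 0.24).

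**Figure D2:**
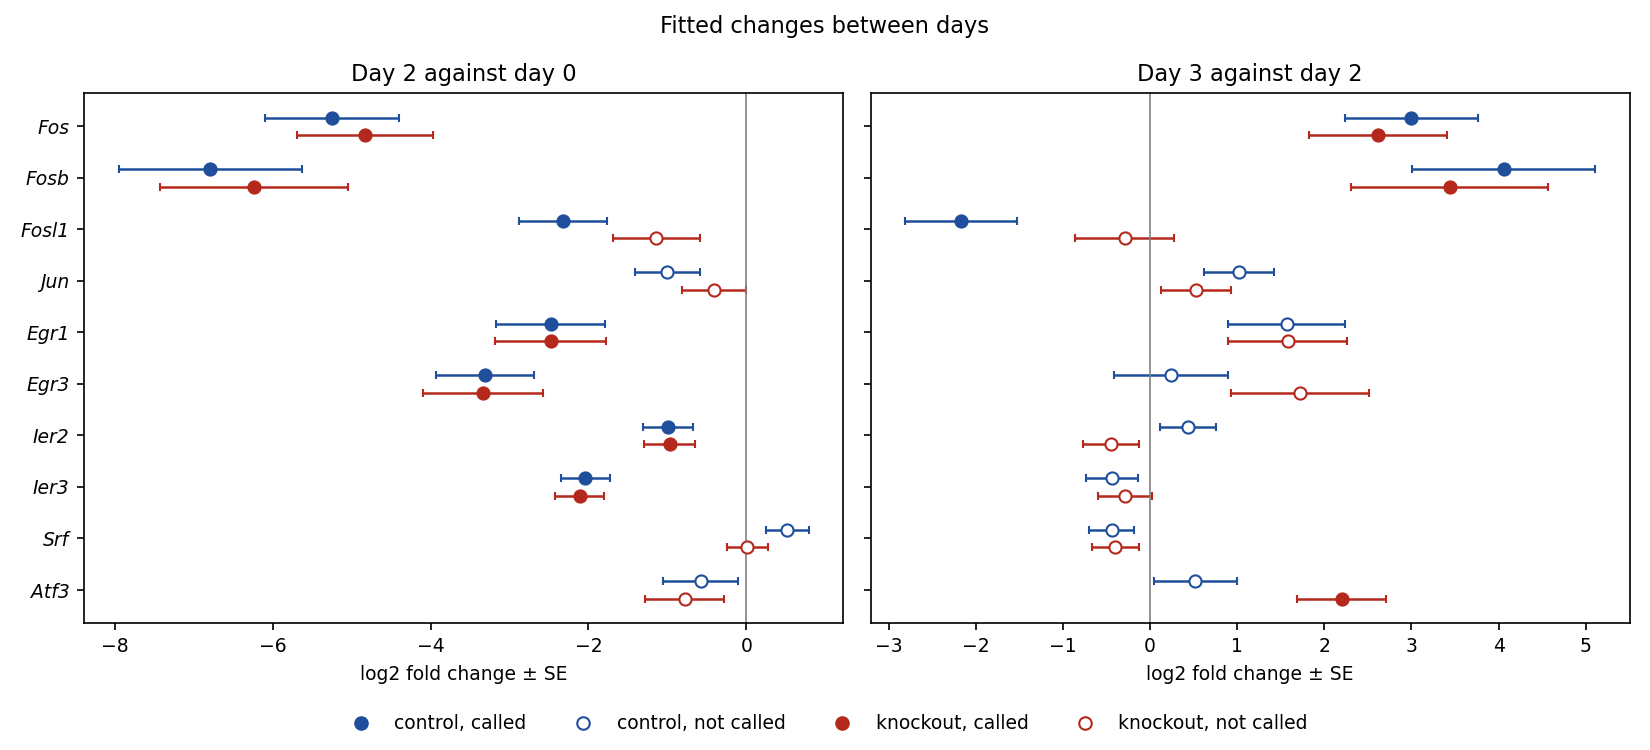
Fitted log2 fold change of each gene with its SE, for day 2 against day 0 (left) and day 3 against day 2 (right), in controls (blue) and knockout cells (red); filled points passed an adjusted p of 0.05. On the left 7 control and 6 knockout points are filled and all lie below 0, and on the right Fos and Fosb are filled above 0 in both genotypes.

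The change from day 0 to day 2 was not shown to differ between genotypes for any member. In the test of the difference (knockout minus control) the members ranged from -0.50 for Srf to 1.18 ± 0.77 for Fosl1, with adjusted p from 0.78 to 1 (edgeR). None was under 0.05 before adjustment, and 0.0219% of all genes were called. DESeq2 also called none of the 10. The approximate SE of the difference was 1.04 for Fos and 1.5 for Fosb, so by this measure a genotype difference in their fall is bound only loosely.

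The 6 series can be set side by side, with the log2 change of CPM plus 0.5. Fos, Fosb, Fosl1, Egr1, Egr3, Ier2 and Ier3 were lower at day 2 than at day 0 in 6 of 6 series, as were 19.7% of all genes. Fosb was -7.43 in HM1 replicate 1, -6.31 in HM1 replicate 2 and -4.27 in 1A4, and -5.90, -6.51 and -2.88 in lines 14, 19 and 319. Fos was -6.24, -5.19 and -3.70 in the controls and -4.94, -6.41 and -2.04 in the knockout lines. In both genotypes the blastocyst-derived line, 1A4 or 319, had the smallest change of these 2 genes.

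The median over the 10 members was -2.50 in HM1 replicate 1, -2.06 in HM1 replicate 2, -1.88 in line 14 and -1.59 in line 19, but -0.82 in 1A4 and -0.55 in line 319. Ier2 was the exception among the genes that fell, with its widest change in line 319 (-1.53) and its smallest in line 19 (-0.50). Jun was lower in 4 series and higher in 1A4 (0.87) and line 319 (0.03). Atf3 was lower in 5 series and higher in 1A4 (0.94), and Srf ranged from -0.09 in line 319 to 1.08 in 1A4.

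**Figure D3:**
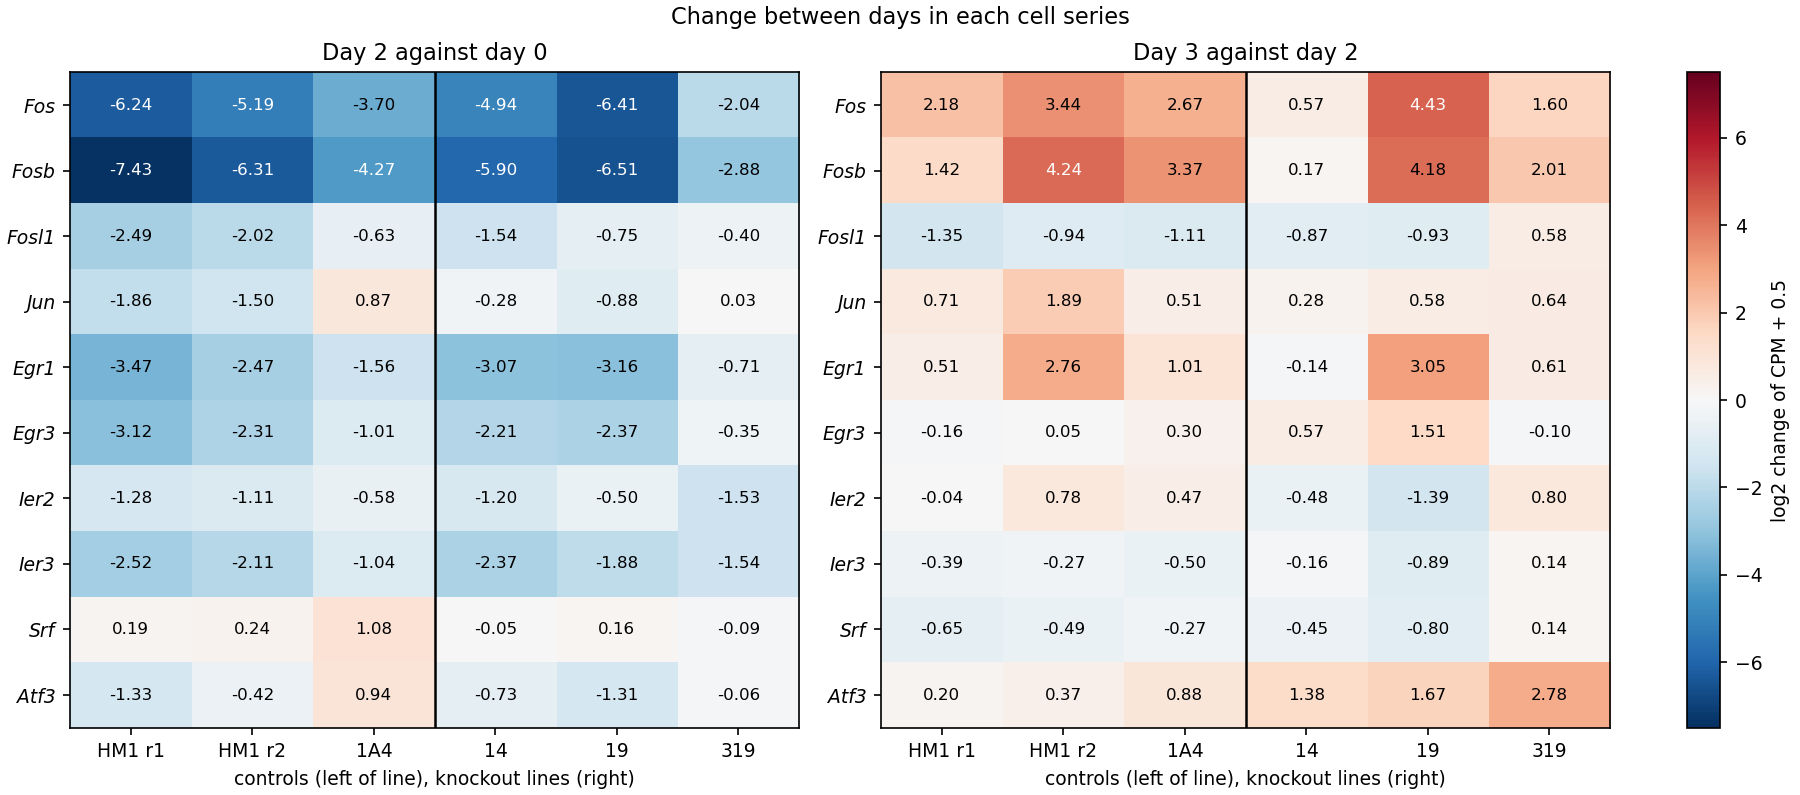
Log2 change of CPM plus 0.5 in each series for each gene, from day 0 to day 2 (left) and from day 2 to day 3 (right); blue is lower and red higher, and a line parts controls from knockout lines. The upper rows for Fos and Fosb are blue in all 6 series on the left and red in all 6 on the right, from -7.43 to 4.43.

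The spread between samples moved with the day. At day 0 HM1 replicate 1 had the highest of the 6 samples for 9 of the 10 members (line 14 for Srf), and line 319 the lowest for 8 (1A4 for Fosl1 and Jun). The members' median coefficient of variation in controls was 65.2%, 13.3% and 29.1% on days 0, 2 and 3. Over all genes whose group mean reached 1 CPM the medians were 10.8%, 7.98% and 8.47%. In knockout cells the members' medians were 38.7%, 34.9% and 77.6%, and those of all genes 15.4%, 32.5% and 16.1%. Control samples thus differed most in these genes at day 0 and least at day 2, while knockout samples differed most at day 3.

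The day 3 samples, which had fresh medium and retinoic acid for a day, were compared with the day 2 samples that also enter the comparison above. Fos and Fosb rose again in both genotypes. In controls Fosl1 fell, and in knockout cells Atf3 rose. That makes 3 of 10 members in controls (21.4% of all genes were called, 12.5% higher and 8.92% lower) and 3 in knockout cells (33.6%, 17.6% higher and 16.0% lower). The samples of the days did not overlap for 4 members higher and 3 lower in controls (29.3% and 28.1% of all genes), and for 4 higher and 0 lower in knockout cells (19.9% and 14.9%). The median change of the members was 0.48 and 1.05, beside 0.00 for all genes in both.

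Fos at day 3 had 19.2, 56.9 and 28.3 CPM in HM1 replicate 1, HM1 replicate 2 and 1A4, and 6.30, 49.4 and 11.4 CPM in lines 14, 19 and 319. In both genotypes all 3 samples lay above those of day 2 and in controls below those of day 0. The rise was 3.00 ± 0.76 (edgeR, adjusted p = 0.011) in controls and 2.62 ± 0.79 (adjusted p = 0.019) in knockout cells. Leaving out any 1 control gave adjusted p of 0.055 to 0.15. In knockout cells the call was lost with the series as a replicate block (2.28, adjusted p = 0.056), without line 19 (1.40, adjusted p = 0.26), and without its day 2 library alone (2.27, adjusted p = 0.087).

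Fosb had 3.31, 22.1 and 14.1 CPM in the controls at day 3 and 1.11, 19.5 and 3.26 CPM in lines 14, 19 and 319. Line 14 was nearly at its level of day 2. The rise was 4.06 ± 1.05 (edgeR, adjusted p = 0.012) in controls, and 3.69 with an adjusted p of 0.14 without HM1 replicate 2, 3.96 with 0.055 without 1A4. In knockout cells it was 3.44 ± 1.13 (adjusted p = 0.029). That call was lost under the replicate block (3.14, adjusted p = 0.067), without line 14 (4.06, adjusted p = 0.051), line 19 (1.86, adjusted p = 0.38), the line 19 library of day 2 (3.27, adjusted p = 0.11) or HM1 replicate 2 (3.45, adjusted p = 0.053).

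Egr1 was higher at day 3 than at day 2 in every control (57.4, 256 and 85.7 CPM), and in lines 19 and 319 (137 and 23.2 CPM) but not in line 14 (19.4 CPM). The change was 1.57 ± 0.67 (edgeR, adjusted p = 0.11) in controls and 1.58 ± 0.68 (adjusted p = 0.084) in knockout cells. Jun was at 45.8, 79.9 and 49.1 CPM in controls at day 3, above all day 2 samples (1.02 ± 0.40, adjusted p = 0.086), and at 29.5, 37.5 and 36.4 CPM in lines 14, 19 and 319 (0.53 ± 0.40, adjusted p = 0.32). Jun, Fos, Fosb and Atf3 were higher at day 3 than at day 2 in 6 of 6 series, as were 22.7% of all genes. For Fos, Fosb and Egr1 the widest changes were those of line 19 and HM1 replicate 2 and the smallest that of line 14. Each extreme thus held a knockout line, and the widest held a control as well.

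Atf3 had 11.3, 9.72 and 39.6 CPM in lines 14, 19 and 319 at day 3, all above day 2, and 14.0, 15.5 and 30.5 CPM in the controls, which overlapped with day 2. The rise in knockout cells was 2.20 ± 0.51 (edgeR, adjusted p = 0.0044), and the control value 0.52 ± 0.48 (adjusted p = 0.48). The difference between them was 1.68 ± 0.69 and was not called (adjusted p = 0.55). Both blastocyst-derived lines had more Atf3 at day 3 than any HM1-derived sample.

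Fosl1 kept falling in controls, to 0.22, 0.27 and 0.29 CPM at day 3, which rest on 8 to 11 counts (-2.17 ± 0.64, edgeR, adjusted p = 0.024). That call was lost without HM1 replicate 1 (-1.96, adjusted p = 0.15), HM1 replicate 2 (-2.31, adjusted p = 0.14) or 1A4 (-2.25, adjusted p = 0.063). Lines 14 and 19 had 0.68 and 0.79 CPM, and line 319 had 2.95 CPM, more than its own day 0 level. The test of the difference in this change gave 1.88 ± 0.86 (adjusted p = 0.56). No member was called in the test of the day 3 against day 2 difference between genotypes, where 2 had an unadjusted p under 0.05 and 0.0383% of all genes were called. DESeq2 called none either.

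Day 3 was also set against day 0, with the same samples. In controls 5 members were lower: Fosl1 (-4.49 ± 0.66), Egr3 (-3.07 ± 0.63), Fosb (-2.73 ± 0.96), Ier3 (-2.49 ± 0.31) and Fos (-2.25 ± 0.74), with adjusted p from 1.1e-05 to 0.026 in edgeR (51.0% of all genes were called, 23.3% lower). In knockout cells Fosb (-2.80 ± 0.94), Ier3 (-2.40 ± 0.31), Fos (-2.21 ± 0.73), Egr3 (-1.61 ± 0.60), Fosl1 (-1.43 ± 0.56) and Ier2 (-1.43 ± 0.32) were lower and Atf3 was higher (1.42 ± 0.50, adjusted p = 0.026), beside 22.2% and 28.4% of all genes (50.6% called in all). The days did not overlap for 5 members lower in controls (33.4% of all genes), and for 2 lower and 1 higher in knockout cells (27.1% and 30.6%). Ier3 stayed low at day 3, at 2.91, 3.84 and 3.31 CPM in controls and 2.81, 1.92 and 3.34 CPM in lines 14, 19 and 319.

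Several of these calls rest on single samples. In controls Fos and Fosb were not called without HM1 replicate 1 (-1.42, adjusted p = 0.22, and -1.46, adjusted p = 0.28) or HM1 replicate 2 (adjusted p = 0.074 and 0.11). In knockout cells without line 14, Fos (-1.61, adjusted p = 0.15), Fosb (-2.03, 0.15), Egr3 (-1.15, 0.27), Fosl1 (-0.67, 0.44) and Atf3 (0.056) were not called. Atf3 was also lost without line 319 (0.54, adjusted p = 0.38), without HM1 replicate 2 (adjusted p = 0.054) and under the replicate block (1.30, adjusted p = 0.059). Fosl1 was lost without line 19 (-1.13, adjusted p = 0.19) or HM1 replicate 2 (adjusted p = 0.084), and Egr3 without HM1 replicate 1 (adjusted p = 0.053) or 2 (adjusted p = 0.074).

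Knockout and control cells were compared within each day. At day 0 no member was called, while 0.854% of all genes were (0.788% lower and 0.0657% higher). All 10 fitted values were below 0, from -1.53 ± 0.49 for Atf3 (adjusted p = 0.19) to -0.06 for Srf. Egr3 (-1.39 ± 0.55, adjusted p = 0.34) and Egr1 (-1.27 ± 0.66, adjusted p = 0.54) were next to Atf3. Before adjustment 2 were under 0.05. Atf3 was the one member whose samples did not overlap (9.70% of all genes were apart as lower and 8.06% as higher), at 5.55 to 7.48 CPM in the knockout lines and 8.30 to 31.2 CPM in controls, and DESeq2 called it (-1.53, adjusted p = 0.046).

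At day 2 again none was called by edgeR (1.60% of all genes), and 1 was under 0.05 before adjustment. Atf3 had -1.74 ± 0.50 (adjusted p = 0.086; 0.0098 in DESeq2) and Egr1 -1.27 ± 0.67 (adjusted p = 0.3). For both genes, and for Srf, every knockout line lay below every control, and Fosl1 lay above (11.7% and 9.94% of all genes). Against the mean of the HM1 replicates, Egr1 was -0.85 in line 14 and -1.23 in line 19, and against 1A4 it was -1.47 in line 319 (log2 of CPM plus 0.5). For Atf3 these values were -1.46, -1.96 and -1.54.

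At day 3 Fosl1 was higher in knockout cells (2.5 ± 0.65, edgeR, adjusted p = 0.038), beside 5.20% of all genes called, 2.75% higher and 2.45% lower. Fosl1 was apart as higher, and 2 members as lower (17.6% of all genes in each direction). The 3 knockout samples lay above the 3 controls, and without line 319 the difference was 1.26 (adjusted p = 0.16). The call was also lost without HM1 replicate 1 (2.38, 0.17), HM1 replicate 2 (2.53, 0.21) or 1A4 (2.32, 0.12) and among lines derived from HM1 (1.58, adjusted p = 0.077). Ier2 was lower in all 3 knockout lines, 60.9, 53.3 and 69.4 CPM against 87.8, 149.7 and 132 CPM, without passing the test (-1.0 ± 0.32, adjusted p = 0.078; 0.03 in DESeq2). Ier2 passed in edgeR without line 319 (-1.13, adjusted p = 0.019), where 10.8% of all genes were called. Against controls of the same background, its log2 ratio was -0.96, -1.15 and -0.92 in lines 14, 19 and 319. Line 319 has an extra chromosome 8, which carries Ier2, and the part of that copy was not tested. Egr1 was -1.26 ± 0.66 (adjusted p = 0.28).

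Other genes of the serum response were followed in lists. Of 40 further immediate early genes 22 fell from day 0 to day 2 in controls and none rose (median -0.95). Among all genes 15.5% were called lower there and 19.7% higher. In knockout cells 17 fell and 3 rose (median -0.70), beside 15.1% and 20.8% of all genes. Those with the widest called control change were Nr4a3, an orphan nuclear receptor (-3.39 ± 0.86 in controls, adjusted p = 0.0067; -3.42 ± 1.01 in knockout cells, 0.016), Plaur, the urokinase receptor (-2.44 ± 0.36, 1.0e-04; -2.82 ± 0.37, 4.0e-05), and Egr2 (-2.24 ± 0.67, 0.016; -1.27 ± 0.67, 0.15), all from edgeR. Nr4a3 was a low transcript whose control days overlapped, at 0.12 to 4.13 CPM at day 0 and 0.16 to 0.19 CPM at day 2. Its lowest control sample at day 0 held 3 counts. In knockout cells it had 0.39 to 1.68 CPM at day 0 and 0 to 0.13 CPM at day 2, the lowest with 0 counts. The control calls of Nr4a3 and Egr2 were lost without either HM1 replicate. The list's count was 9 without HM1 replicate 1 and 11 without HM1 replicate 2 (15.3% and 17.1% of all genes called). Without line 14 or line 19 the knockout count was 11 or 13 (20.6% and 35.3% of all genes called), and Nr4a3 was not called. Between genotypes the list had 0 calls at day 0, 2 at day 2 and 8 at day 3 (2 higher and 6 lower in knockout cells, median -0.39). The shares of all genes were 0.854%, 1.60% and 5.20%, the last falling to 0.2% without HM1 replicate 1. Plaur was called lower at day 3 (-1.41 ± 0.35, edgeR, adjusted p = 0.033), though its samples overlapped.

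The cytoskeletal genes that SRF controls with MRTF were called in both directions. Of 25, 5 rose and 2 fell in controls (median -0.02), and 7 rose and 3 fell in knockout cells (median 0.10). Myl9, a myosin light chain, was at 1.80 ± 0.59 (edgeR, adjusted p = 0.025) and Cnn1, calponin, at 1.73 ± 0.49 (adjusted p = 0.013) in controls, while Vim, vimentin, was at -1.48 ± 0.23 (adjusted p = 1.9e-04). Cnn1 lost its call without 1A4, and Myl9 without any single control or line 14. The counts of 7 in controls and 10 in knockout cells stood beside 35.2% and 35.9% of all genes. The control count was 3 without HM1 replicate 1 or 2 (15.3% and 17.1% of all genes called) and 13 without line 19 (47.4%). The knockout count was 6 without line 14 (20.6%).

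Of 11 SRF cofactors and CREB genes, 1 rose and 3 fell in each genotype (median -0.09 in controls and -0.39 in knockout cells). The shares of all genes called were 35.2% in controls and 35.9% in knockout cells. Myocd, a muscle cofactor of SRF, rose (1.62 ± 0.38, edgeR, adjusted p = 0.0038 in controls, 2.29 ± 0.51 in knockout cells). It was a low transcript, with means of 0.34 and 1.06 CPM at day 0 and 2 in controls. In knockout cells the means were 0.066 and 0.37 CPM, with as few as 2 counts in a sample at day 0. The ternary complex factor Elk3 fell (-1.44 ± 0.20, adjusted p = 7.5e-05, and -1.11 ± 0.20), as did the ETS repressor Erf (-1.01 ± 0.28, adjusted p = 0.01, and -1.45 ± 0.28). Without HM1 replicate 1 only Elk3 among these 3 kept its control call (count 1 in the list, 15.3% of all genes called). Without HM1 replicate 2 or 1A4 the count was 2 (17.1% and 23.9%).

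In the cascade from receptors to ERK, 5 of 20 genes rose and 3 fell in each genotype (median 0.10 in both). Of all genes 35.2% were called in controls and 35.9% in knockout cells. Pdgfra, a receptor for the serum growth factor PDGF, went from 7.75 ± 1.64 CPM (SD, n = 3) to 1.48 ± 0.14 CPM in controls (-2.40 ± 0.32, edgeR, adjusted p = 5.0e-05), and had -0.68 ± 0.30 in knockout cells (adjusted p = 0.093; -0.75 and 0.037 under the replicate block). The Pdgfra means in knockout cells were 6.61 CPM at day 0 and 4.05 CPM at day 2. The difference between its 2 changes was 1.71 ± 0.43 and was not called (edgeR, adjusted p = 0.36). Within days Pdgfra was higher in knockout cells at day 2 (1.47 ± 0.32, edgeR, adjusted p = 0.032) and day 3 (1.45 ± 0.30, 0.015), but not called at day 0 (-0.25 ± 0.30, 0.9). The ERK-activated kinase gene Rps6ka2 rose in controls (1.35 ± 0.33, edgeR, adjusted p = 0.0046) and in knockout cells (0.96 ± 0.33, adjusted p = 0.031). The latter call was lost in 9 of 16 alternatives, with an adjusted p of 0.073 under the replicate block and 0.42 without line 319. The list's control count was 2 without HM1 replicate 1 (15.3% of all genes called) and 3 without HM1 replicate 2 or 1A4 (17.1% and 23.9%).

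**Figure D4:**
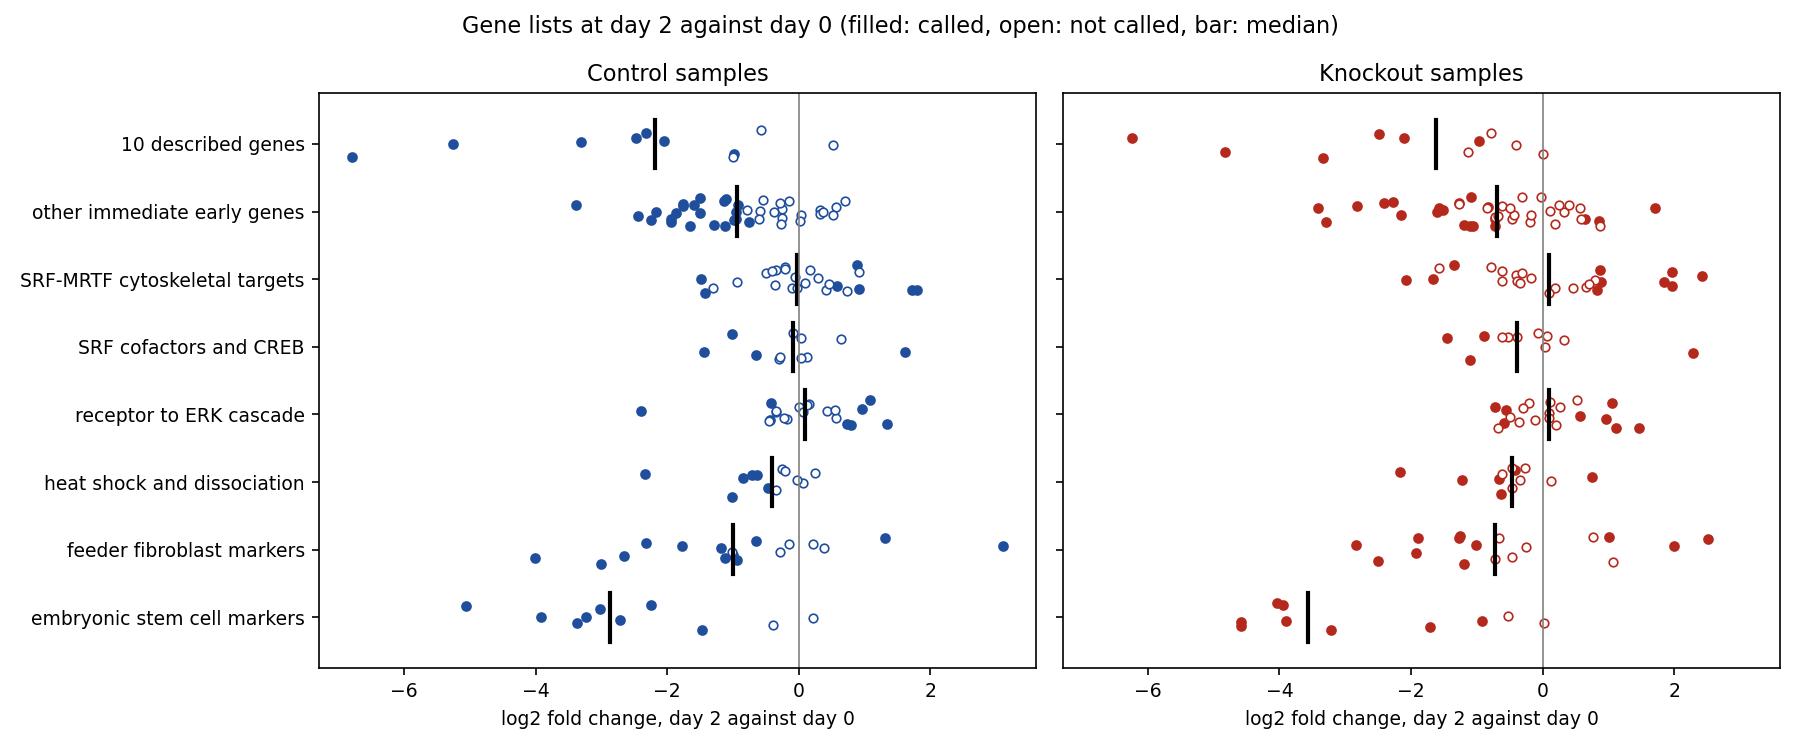
Fitted log2 fold change from day 0 to day 2 for the genes of each list, in controls (left) and knockout cells (right); filled points were called, open points were not, and the bar is the list's median. The 10 members have a median of -2.18 in controls and the other immediate early genes one of -0.95, while the cytoskeletal and ERK cascade lists lie around 0.

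Genes of stress and of other cells moved over the same days. Of 12 heat shock and dissociation genes 6 fell in controls and none rose (median -0.41), and 5 fell and 1 rose in knockout cells. Among all genes 15.5% were called lower and 19.7% higher in controls, and 15.1% lower and 20.8% higher in knockout cells. The summed level of the 12 genes went from between 15734 and 18202 CPM to between 11161 and 11941 CPM in controls. The widest was Hspb1 (-2.33 ± 0.42, edgeR, adjusted p = 5.5e-04), whereas Hspa1b, the stress-inducible form of Hsp70, was at 5.23, 4.81 and 2.15 CPM at day 0 and 5.66, 5.35 and 3.56 CPM at day 2 in controls, where it was not called. In knockout cells Hspa1b fell (-1.23), from 2.91, 3.81 and 3.34 CPM to 1.43, 1.36 and 1.51 CPM in lines 14, 19 and 319. Hspa8 (-1.01 ± 0.19, adjusted p = 7.2e-04) and Hspd1 (-0.84 ± 0.16, adjusted p = 9.2e-04) also fell in controls. The count was 3 without HM1 replicate 1 in controls (15.3% of all genes called) and 2 without line 14 in knockout cells (20.6%).

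Of 17 tested feeder fibroblast markers 10 fell and 2 rose in controls (median -1.0), and 8 fell and 3 rose in knockout cells (median -0.73). The all-gene shares were 15.5% lower and 19.7% higher in controls, and 15.1% and 20.8% in knockout cells. The 18 markers summed to between 294 and 629 CPM at day 0, 219.6 and 254 CPM at day 2 and 395 and 493 CPM at day 3 in controls, and to 321 to 444, 179 to 258 and 318 to 475 CPM in knockout cells. One of them, Ccn2, is itself an immediate early gene. Without it the controls had 429, 376 and 212 CPM at day 0, in the same order as Fos, and the knockout lines 14, 19 and 319 had 289.6, 171 and 264 CPM, in another order. The largest falls in controls were those of S100a4 (-4.01), Prrx1 (-3.01) and Col6a1 (-2.66), which were also called lower in knockout cells (-1.90, -1.92 and -1.20). S100a4 went from 20.2 ± 5.14 CPM (SD, n = 3) to 1.24 ± 0.37 CPM in controls and from 19.1 ± 8.85 to 5.16 ± 2.85 CPM in knockout cells, and Prrx1 from 8.09 ± 2.45 to 1.0 ± 0.15 CPM and from 5.97 ± 2.16 to 1.54 ± 0.51 CPM. Dcn, Lum and Twist2 stayed under 1 CPM in all 3 controls at day 0. Col1a1 was at 60.5, 58.7 and 38.1 CPM at day 0 in controls, and at 57.9, 97.1 and 89.0 CPM at day 3. Its means at day 0, 2 and 3 were 52.5, 26.3 and 81.3 CPM in controls and 42.8, 17.8 and 48.1 CPM in knockout cells. The fall of Col1a1 to day 2 was called in both genotypes. The markers called higher at day 2 were Thy1 (3.11 in controls and 2.51 in knockout cells) and Dcn (1.31 and 2.00), and in knockout cells also Twist1 (1.01). The part of feeder cells and of handling stress in the members' change was not tested. The list's control count was 5 without HM1 replicate 1 and 6 without HM1 replicate 2 (15.3% and 17.1% of all genes called). Its knockout count was 6 without line 14 (20.6%).

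Embryonic stem cell markers marked the cells as labelled: 10 of them summed to between 5332 and 5712 CPM in the controls and 5871 and 7383 CPM in the knockout lines at day 0. Pou5f1 was at 999 to 1127 CPM in controls and 1222 to 1506 CPM in knockout lines at day 0, and at 743 to 903 CPM and 769 to 1124 CPM at day 2. Nanog went from between 471 and 749.5 CPM to between 63.5 and 111 CPM in controls. Line 319, lowest in most members at day 0, had the highest Pou5f1 and Nanog there (1506 and 906 CPM).

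The members did not all share 1 profile. Each was compared with the mean of the standardised log2 levels of the 10, itself included, over the 18 samples, which share lines and days. Pearson's r was 0.92 for Fosb and Egr3, 0.90 for Fos, 0.89 for Egr1, 0.84 for Ier3 and 0.82 for Ier2. It was 0.72 for Jun, 0.60 for Fosl1, 0.43 for Atf3 and 0.34 for Srf. Among all other genes tested, those with only a clone name left out, those most like that mean included Tcim and Junb (both 0.935), Tox4 (0.915), Jak3 (0.901), Rell1 (0.900), Phlda1 (0.899), Egr2 (0.897), Serpinb2 (0.888) and Adipor1 (0.875). Junb, Phlda1 and Egr2 belong to the list of other immediate early genes. The mean was highest in HM1 replicate 1 at day 0 (1.78, in standard deviations averaged over the 10 genes), and lowest in line 319 at day 2 (-1.06).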

How the data were processed

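Poly(A) RNA of 18 samples was sequenced, with 72 count files labelled as 4 technical replicates of each sample. The deposited files hold raw counts per Ensembl transcript, per the file headers. The submitters' processing notes name bcl2fastq 2.17.1.14, STAR 2.4.0k, SAMtools, HTSeq and mm10, without role or order. The annotation release and use of strand are not given in the sources used here.

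Counts of the 4 files of a sample were added, since they differed by about counting error (chi-square per degree of freedom 1.009 to 1.028). Of 110379 transcripts, 108214 matched GENCODE M21 (GRCm38), in 45321 genes. Unmatched transcripts, 1.44% to 2.46% of counts, were left out. A gene was represented by its transcript with the most counts, since counts over all transcripts were 2.62 to 2.92 times those of the chosen ones, so adding transcripts may count a read more than once.

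edgeR 4.0.16 (R 4.3.3, limma 3.58.1) fitted 18273 genes kept by filterByExpr with TMM scaling and a robust quasi-likelihood model of 6 groups plus genetic background (HM1-derived or blastocyst-derived), with 11 residual degrees of freedom and a common biological coefficient of variation of 0.246. Background was 1 term shared by all days, so each fitted change between days averages over both backgrounds. The changes per series show where the backgrounds differed. P-values were adjusted by Benjamini-Hochberg over all genes. The code was tested on simulated data. CPM are TMM-scaled, and changes per series use log2 of CPM plus 0.5. Intervals for counting error are not given, since the spread between samples is wider.

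Lines and replicate numbers pair the samples of the 3 days into series. The main fit does not use this pairing, so its p-values between days are unpaired, and only the replicate block uses it. Of 18 correlations of deviations within a series 16 were over 0.1 (lowest -0.088, line 19, day 2 with day 3). Alternatives were the replicate block, RLE scaling, DESeq2 1.42.0, no filter, other transcript choices, no background term, fewer samples and other pseudocounts.

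The members and lists were chosen with earlier results of these data known. Genes named beside the members were, per list, the 3 with the largest called control change from day 0 to day 2 and a mean of at least 1 CPM, the markers Pou5f1, Nanog, Col1a1 and Hspa1b, the 10 genes most like the members, and Nup133; some genes that this rule names are not reported here. Ccn2, S100a4, Prrx1, Col6a1, Thy1, Twist1 and the feeder markers under 1 CPM were named after their values were seen.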

Additional observations from a re-analysis of the deposited data

How the results depend on the processing

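Counts of members called changed with the samples used, and so did the share of all genes called, given as a percentage beside each. With 1 series left out at a time, day 2 against day 0 gave 4 to 8 calls in controls (7 with all; 15.3% to 47.4% of all genes) and 3 to 7 in knockout cells (6 with all; 20.6% to 41.3%). Day 3 against day 2 gave 0 to 3 in controls (6.57% to 33.9%) and 1 to 5 in knockout cells (23.4% to 40.6%). Day 3 against day 0 gave 3 to 6 (31.8% to 61.3%) and 2 to 7 (37.0% to 52.4%). Knockout against control gave 0 to 1 at day 0 (0.0973% to 2.2%), at day 2 (0.119% to 7.35%) and at day 3 (0.0919% to 10.8%). For day 3 against day 2, fitting only the groups compared gave 7 calls in controls (59.6% of all genes) and 1 in knockout cells (11.7%), and no filter gave 1 in both (10.5% and 17%). In knockout cells the replicate block gave 1 (32.6%), the HM1-derived lines 6 (36.6%), and leaving out the line 19 library of day 2 gave 1 (32.0%). For day 3 against day 0, no filter gave 3 in both genotypes (28.7% and 29.1%). For knockout against control, the HM1-derived lines gave 1, 1 and 0 at day 0, 2 and 3 (1.69%, 1.32% and 6.06%) and DESeq2 gave 1, 1 and 2 (3.04%, 7.66% and 11.3%). At day 3 the groups alone and the fit without the line 19 library each gave 2 (15.1% and 15.9%). The cause of these moves was not tested, beyond fewer samples or, with no filter, more genes tested.

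The fall from day 0 to day 2 of Fos, Fosb and Ier3 kept its direction and call in both genotypes under all 16 alternatives run. The replicate block, which gives no comparison of genotypes within a day, changed 3 member calls, all named above. Of 871 values for 55 member results, 771 kept direction and call, 70 lost the call, 25 gained it and 5 changed sign. Those 5 were Atf3 from day 0 to day 2 in controls without HM1 replicate 1 (0.09), and Srf in knockout cells with only the groups compared (-0.01), without 1A4 (0.00), without line 19 (-0.04) and without its day 2 library (-0.06). With 1 series left out, Atf3 there ranged from -0.98 to 0.09 and Srf from -0.04 to 0.06. RLE scaling and both other transcript choices changed no member call. Of 240 changes per series at other pseudocounts, 15 moved by more than the spread between series (Egr3, Fosl1 and Ier3) and 0 changed sign. Low counts limit Egr3 and Fosl1: Egr3 had 0 counts in line 19 at day 2 and Fosl1 8 in HM1 replicates at day 3.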
